A study of Mus musculus with 2 samples.

Results

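The 10 genes described here encode ion channel subunits of islet endocrine cells. Kcnj11 and Abcc8 encode the pore and the sulfonylurea receptor of the ATP-sensitive potassium (KATP) channel. Cacna1a, Cacna1c and Cacna1d encode pores of voltage-gated calcium channels, and Cacna2d1 and Cacna2d3 encode their alpha-2-delta auxiliary subunits. Kcnj12 encodes an inward rectifier potassium channel, and Kcnk16 and Kcnk3 encode two-pore potassium channels. The genes were chosen by name, and all 10 were found among the 46983 gene rows of the files.

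In islet endocrine cells, closure of KATP channels by ATP from glucose metabolism depolarizes the membrane, voltage-gated calcium channels open, and calcium entry triggers hormone release. Background potassium conductances such as those of two-pore channels set how far the membrane is from the threshold of the calcium channels. Alpha-2-delta subunits bind the calcium channel pore and raise the number of channels at the cell surface.

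Both libraries came from tdTomato-positive cells sorted from islets of Langerhans of mice aged 9 days. The Isl1CKO library had the genotype Neurod1 Cre/+; Isl1f/f and the control library Neurod1 Cre/+; Isl1f/+. Both genotypes thus carried 1 Neurod1 Cre allele, and the control carried 1 floxed allele of Isl1, a LIM-homeodomain transcription factor gene. Each library was 1 pool of 6 animals, so no difference between genotypes has a replicate check and no test was run. Actinomycin D, an inhibitor of transcription, was present while the tissue of both groups was dissociated. Levels are given in CPM, the counts of unique molecular identifiers (UMIs) scaled to a common total. The levels of the targeted gene were 461 CPM in Isl1CKO cells and 253 CPM in control cells, or 525 and 542 CPM over UMIs outside the islet hormones. The labels do not say which part of Isl1 is floxed, and counts from its 3' end may lie outside it, so they are no test of the genotype.

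The Isl1CKO library held 3020 cells with a median of 24906.5 UMIs, and the control library 2504 cells with a median of 22638.5 UMIs. The Isl1CKO file listed called cells only, down to 4882 UMIs, whereas the lowest control cell had 6854 UMIs. The libraries shared 4 cell barcodes. Islet hormones made up 12.2% of UMIs in Isl1CKO cells and 53.3% in control cells. This gap scales every other gene, so ratios below are log2 CPM ratios set against the median gene. The median gene itself stood at 0.58 on the log2 CPM scale over all cells, at 0.41 in insulin-high cells, at 0.17 between Ttr-high and Gcg-high cells and at 0.22 between Chgb-high and the other Isl1CKO cells. Levels over UMIs outside the hormones are given beside CPM where the choice matters. Ratios on that scale are not set against the median gene, which stood there at -0.33, -0.15, -0.39 and 0.13 in the same 4 comparisons. All intervals are 95% and cover counting error only.

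Cells were grouped by the share of their own UMIs held by a marker transcript. Isl1CKO cells comprised 383 insulin-high cells (Ins1 and Ins2 together at least 20%), 1445 Ttr-high cells (Ttr at least 5%), 494 Chgb-high cells (Chgb at least 4%) and 761 cells in no class. Control cells comprised 898 insulin-high, 617 Gcg-high (at least 10%) and 539 Sst-high cells (at least 5%), with 465 in no class. In the Isl1CKO library 25 insulin-high, 44 Ttr-high and 57 Chgb-high cells also met another rule, and in the control library 8 insulin-high, 14 Gcg-high and 8 Sst-high cells did. The classes are ranges of 1 transcript and not cell types, and they are called by their rule throughout. Among beta-cell markers, insulin-high cells held Slc2a2 at 318 CPM in Isl1CKO and 366 CPM in control cells and Nkx6-1 at 142 and 117 CPM. They held G6pc2 at 134 and 289 CPM, Ucn3 at 60.7 and 152 CPM and Mafa at 0.272 and 2.97 CPM. Hormones made up 54.6% of UMIs in Isl1CKO and 68.9% in control insulin-high cells. Outside the hormones, the beta-cell markers that are not hormone genes summed to 2615 CPM in Isl1CKO and 4939 CPM in control insulin-high cells. Ttr-high Isl1CKO cells held the alpha-cell gene Irx2 at 197 CPM against 136 CPM in control Gcg-high cells, but Gcg at 2030 against 279789 CPM, where the control class was chosen on Gcg itself. Of enterochromaffin markers, Chgb-high and Ttr-high Isl1CKO cells held Tph1 at 14.4 and 13.8 CPM, Slc18a1 at 39 and 3.89 CPM, Tac1 at 91.5 and 8.94 CPM, Fev at 420 and 192 CPM, Ddc at 219 and 79.7 CPM and Sct at 93.1 and 591 CPM. Cells in no class held Hbb-bs, a haemoglobin gene, at 4114 CPM in Isl1CKO and 1610 CPM in control cells, and the acinar gene Prss2 at 816 and 934 CPM. They also held the hormone genes Ppy at 1206 CPM in Isl1CKO and 119350 CPM in control cells and Pyy at 9961 and 137420 CPM.

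The KATP pair lies side by side on the minus strand of mouse chromosome 7 (build GRCm38, GENCODE M21), Kcnj11 at 46093953 to 46100764 and Abcc8 at 46104523 to 46180033, with 3758 bases between them. The calcium channel pore genes are Cacna1a on chromosome 8 (84388440 to 84640246), Cacna1c on chromosome 6 (118587240 to 119196418) and Cacna1d on chromosome 14 (30039939 to 30491455). Cacna2d1 lies on chromosome 5 (15934691 to 16374511) and Cacna2d3 on chromosome 14 (28904943 to 29721864). Kcnj12 lies on chromosome 11 (61022564 to 61071131), Kcnk16 on chromosome 14 (20261376 to 20269199) and Kcnk3 on chromosome 5 (30588170 to 30625271). None of the 10 shares exon sequence with another annotated gene on its own strand. Opposite-strand exons overlap Cacna1a over 435 bases, Cacna1d over 589 bases and Kcnk3 over 229 bases, and the sources used here do not give whether counting used strand.

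The promoters of Kcnj12 and Cacna2d3 are shown because these members gave the widest differences between the genotypes, in opposite directions. Both are the RefSeq windows from 250 bases before to 50 bases after a transcription start, 5' to 3' on the gene's strand, on GRCm38.p6. Kcnj12 is chr11:61065554-61065853 on the plus strand, a start inside the GENCODE gene, and Cacna2d3 is chr14:29721815-29722114 on the minus strand. Capitals mark TAAT, the core bound by many homeodomain proteins, read on both strands and so also as ATTA.
Kcnj12: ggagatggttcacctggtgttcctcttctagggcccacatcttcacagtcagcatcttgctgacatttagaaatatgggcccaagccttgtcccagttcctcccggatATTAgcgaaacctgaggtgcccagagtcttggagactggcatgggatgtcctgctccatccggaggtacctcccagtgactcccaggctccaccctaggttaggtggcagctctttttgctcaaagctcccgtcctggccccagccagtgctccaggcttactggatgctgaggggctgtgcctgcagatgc
Cacna2d3: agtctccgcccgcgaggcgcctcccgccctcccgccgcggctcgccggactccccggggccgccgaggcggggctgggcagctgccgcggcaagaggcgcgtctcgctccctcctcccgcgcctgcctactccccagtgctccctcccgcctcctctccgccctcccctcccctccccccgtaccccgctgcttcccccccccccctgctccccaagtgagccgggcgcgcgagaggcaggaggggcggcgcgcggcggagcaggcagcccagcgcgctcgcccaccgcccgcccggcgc
The Kcnj12 window held 1 such match, 142 bases before the start (position -142), and the Cacna2d3 window held none. Of 32851 RefSeq mouse promoter windows of this length 58% held at least 1 match, so its presence or absence describes the letters of a window and nothing more. The GC content was 57% for Kcnj12 and 81.3% for Cacna2d3, against a median of 52.7% over all windows and a 95th percentile of 73.7%. The Cacna2d3 window held 41 CG pairs and the Kcnj12 window 4. RefSeq windows were matched for 6 of the 10 genes. Kcnj11, Abcc8, Cacna1a and Kcnk3 had no match.

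**Figure D1:**
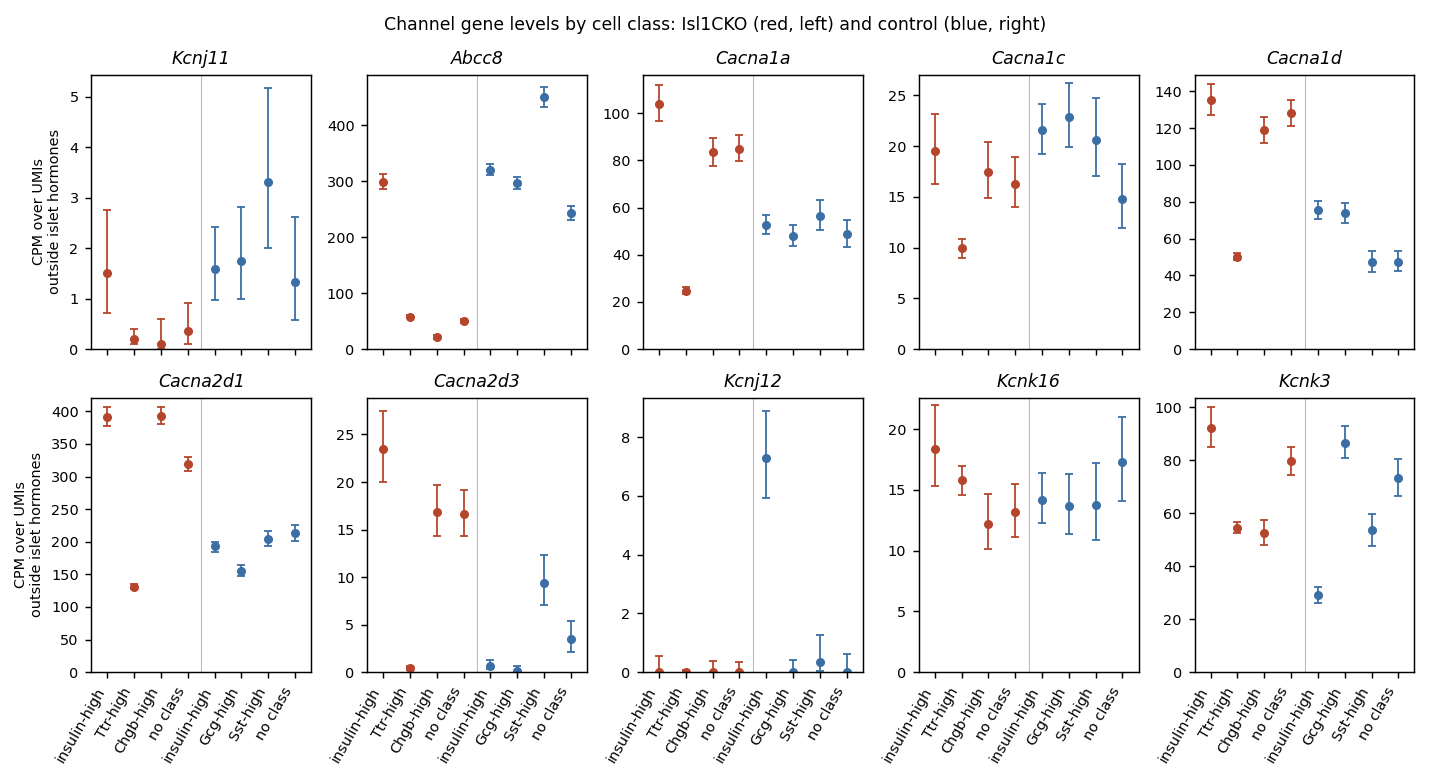
Level of each gene in 8 cell classes, as CPM over UMIs outside the islet hormones with exact Poisson 95% intervals (vertical axis from 0), Isl1CKO classes in red on the left and control classes in blue on the right. Abcc8 lies at 57.8 CPM or below in the Ttr-high, Chgb-high and no-class Isl1CKO cells and at 243 CPM or above in the other 5 classes, and Kcnj12 UMIs lie almost wholly in control insulin-high cells.

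Over all cells, the KATP receptor gene Abcc8 was lower in the Isl1CKO library, and among the classes it was low in Ttr-high and Chgb-high cells but not in insulin-high cells. Isl1CKO cells held 5104 Abcc8 UMIs (65.4 CPM, 63.6 to 67.2) and control cells 10923 UMIs (151 CPM, 148 to 153). Set against the median gene the log2 ratio was -1.78 (-1.83 to -1.73), or 3.44-fold lower. On plain CPM it was -1.20. Over all cells, the make-up of classes and the level per cell cannot be told apart.

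By class, Abcc8 stood at 136 CPM in Isl1CKO insulin-high cells (130 to 142), 57.1 CPM in Ttr-high cells (54.9 to 59.4), 20 CPM in Chgb-high cells (17.4 to 23.0) and 47.7 CPM in the Isl1CKO cells of no class. Control cells held 99.5 CPM in the insulin-high class, 201 CPM in the Gcg-high class, 311 CPM in the Sst-high class and 172 CPM in no class. No 2 neighbours in this order had overlapping intervals on the CPM scale. Outside the hormones, however, the Isl1CKO insulin-high level of 299 CPM (286 to 312) lay beside 320 CPM (311 to 330) in control insulin-high cells and 297 CPM in Gcg-high cells, and its interval overlapped both. In insulin-high cells the log2 ratio of Isl1CKO over control was 0.04 (-0.04 to 0.11).

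Cells differed within each class. Among Isl1CKO cells, 54.6% of insulin-high cells had at least 5 Abcc8 UMIs and 10.4% had none. Of Ttr-high cells 10.1% had at least 5 and 37.9% had none, and of Chgb-high cells 2.83% had at least 5 and 87.7% had none. In control cells the share with none was 2.56% for insulin-high, 4.70% for Gcg-high and 2.78% for Sst-high cells. In Chgb-high cells, 14 of 494 cells held 57.1% of that class's Abcc8 UMIs. Of these 494 cells, 57 also belonged to another class.

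With every cell thinned to 5000 UMIs, cells with an Abcc8 UMI made up 45.2% of Isl1CKO insulin-high, 21.4% of Ttr-high and 5.06% of Chgb-high cells, against 39.0% of control insulin-high, 63.4% of Gcg-high and 75.3% of Sst-high cells. Cells with mesenchymal markers, which should lack KATP channels of this kind, gave 4.76% (0.12 to 23.8) of 21 Isl1CKO cells and 5.26% (0.644 to 17.7) of 38 control cells. Their median depth was 7797 and 7876.5 UMIs, below that of every other class. The Chgb-high share, with an interval of 3.3 to 7.38%, lay within both of these wide intervals and could not be told from background at this depth. Free RNA in control barcodes of 100 or fewer UMIs held Abcc8 at 148 CPM, and its part in the class levels was not tested.

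**Figure D2:**
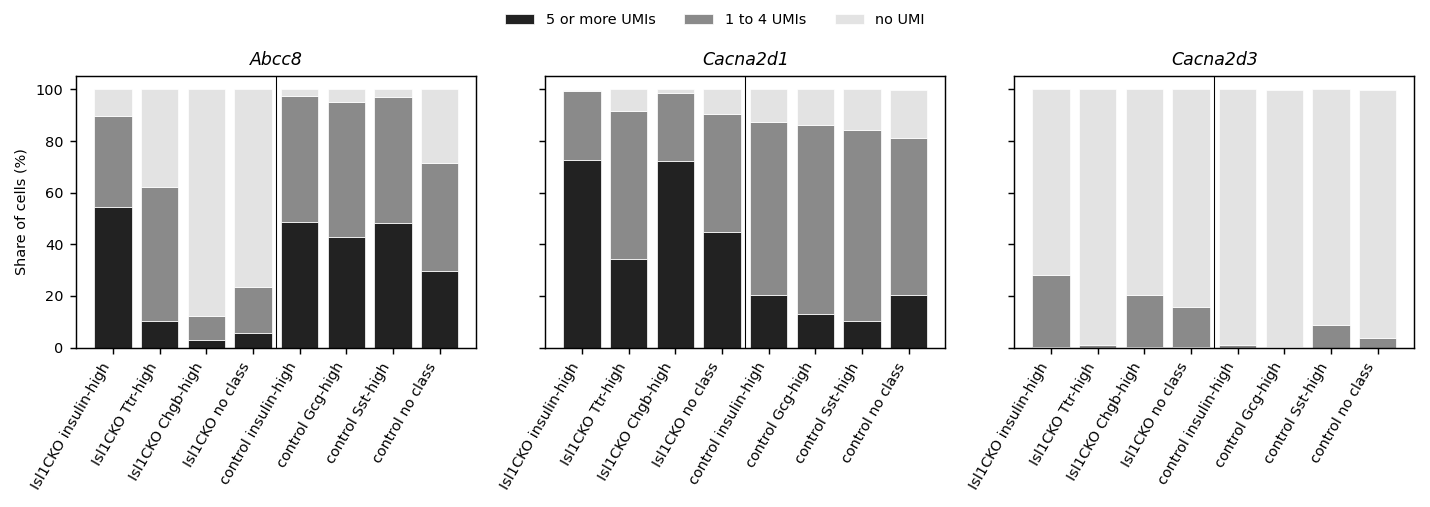
Share of cells (vertical axis, percent) with 5 or more, 1 to 4 or no UMI of Abcc8, Cacna2d1 and Cacna2d3 in each class, Isl1CKO classes left of the control classes, at full depth. Abcc8 is without a UMI in 87.7% of Chgb-high Isl1CKO cells, while 72.8% of Isl1CKO and 20.5% of control insulin-high cells hold 5 or more Cacna2d1 UMIs.

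Kcnj11, the KATP pore gene, was counted rarely in every class, with 24 UMIs in Isl1CKO cells (0.307 CPM, 0.197 to 0.457) and 64 UMIs in control cells (0.882 CPM, 0.679 to 1.13). The log2 ratio was -2.10 (-2.84 to -1.40), or 4.29-fold lower. The 24 Isl1CKO UMIs fell on 10 in insulin-high, 9 in Ttr-high, 1 in Chgb-high and 4 in no-class cells. The control UMIs were 21 in insulin-high, 16 in Gcg-high, 19 in Sst-high and 8 in no-class cells. Every pair of neighbours in the order of class levels had overlapping intervals, and no class comparison reached the minimum of 50 UMIs. Classes farther apart did not always overlap. Control Sst-high cells held 2.29 CPM (1.38 to 3.58) and Ttr-high Isl1CKO cells 0.206 CPM (0.0941 to 0.391). Ttr-high over control Gcg-high cells gave a log2 ratio of -2.69 (-4.05 to -1.42) on 9 and 16 UMIs, under the minimum. In insulin-high cells the levels were 0.681 CPM in Isl1CKO (0.327 to 1.25) and 0.491 CPM in control cells (0.304 to 0.750). The files give version 1 of the Kcnj11 gene identifier and M21 gives version 2. The gene model behind the counts is not known here, so the low counts say little about the gene's abundance.

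Kcnj12, the inward rectifier gene, was absent from the Isl1CKO counts. It had 0 UMIs in 3020 Isl1CKO cells, which by a limit of 3 UMIs allows a level of up to 0.0384 CPM and a share of cells with a UMI of up to 0.0993%. Control cells held 99 UMIs (1.36 CPM, 1.11 to 1.66), of which 97, or 98.0%, lay in the insulin-high class and 2 in Sst-high cells. With 3 UMIs put in place of 0 for the library, Kcnj12 was 53.0-fold lower in Isl1CKO cells relative to the median gene. On the log2 scale this was -5.73, and the upper end of the exact interval was -5.40, a smaller difference. Restricted to insulin-high cells the counts were 0 in 383 Isl1CKO cells and 97 in 898 control cells. With 3 UMIs in place of 0, Kcnj12 was 14.8-fold lower there, or -3.88 on the log2 scale. The upper end of the exact interval was -3.56.

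No Isl1CKO insulin-high cell had a Kcnj12 UMI, which allows a share of up to 0.783%. In control insulin-high cells 84 of 898 (9.35%, 7.53 to 11.5) did, and no cell had more than 3. Within the control library, cells with insulin between 20% and 50% of UMIs held 4 Kcnj12 UMIs (1.32 CPM) and those at 50% or more held 93 (2.34 CPM), a log2 ratio of -1.50 (-3.40 to -0.09). In the same comparison Kcnk3 was 0.87 (0.47 to 1.24), and Cacna2d3 was 4.04 (1.81 to 6.67) on 6 and 3 UMIs, under the minimum. Among insulin-high cells with at least 50% insulin in both libraries, Isl1CKO cells held 0 UMIs and control cells 93. In cells with no Ucn3 UMI, a gene of mature beta cells, the counts were 0 in 212 Isl1CKO cells and 12 in 138 control cells.

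Of the 5 calcium channel genes, Cacna2d3 was at least 2-fold higher in Isl1CKO cells over all cells, and Cacna1a, Cacna2d1 and Cacna2d3 were in insulin-high cells. Over all cells Cacna2d3 alone of the 5 was past 2-fold, with 495 UMIs in Isl1CKO cells (6.34 CPM, 5.79 to 6.92) and 84 UMIs in control cells (1.16 CPM, 0.924 to 1.43). Its log2 ratio was 1.87 (1.54 to 2.23), and 3.59 (3.07 to 4.16) once cells with several hormones were left out. That step removed 1644 of 3020 Isl1CKO cells, 1225 of them Ttr-high, the class in which Cacna2d3 was near 0. It also removed 865 of 2504 control cells, 440 of them Sst-high, the class with 64.3% of control Cacna2d3 UMIs. The other 4 lay between -0.36 for Cacna1c and 0.60 for Cacna1d relative to the median gene. Not set against the median gene, Cacna1a was -0.06 over UMIs outside the hormones and Cacna1c was 0.22 on plain CPM, scales on which the median gene itself stood at -0.33 and 0.58.

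In all, 1 of 10 members was at least 2-fold higher over all cells and 3 were at least 2-fold lower. Of the 14420 genes compared 5.21% were that much higher and 6.82% that much lower. Higher genes made up 43.3% of all genes past 2-fold, but 82.8% on plain CPM and 22.8% over UMIs outside the hormones. In insulin-high cells 9 members were compared, with 4 higher and 1 lower, where 4.97% and 4.73% of 10080 genes were. The higher share of genes past 2-fold there was 51.2%, against 81.3% on plain CPM and 40.9% outside the hormones.

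**Figure D3:**
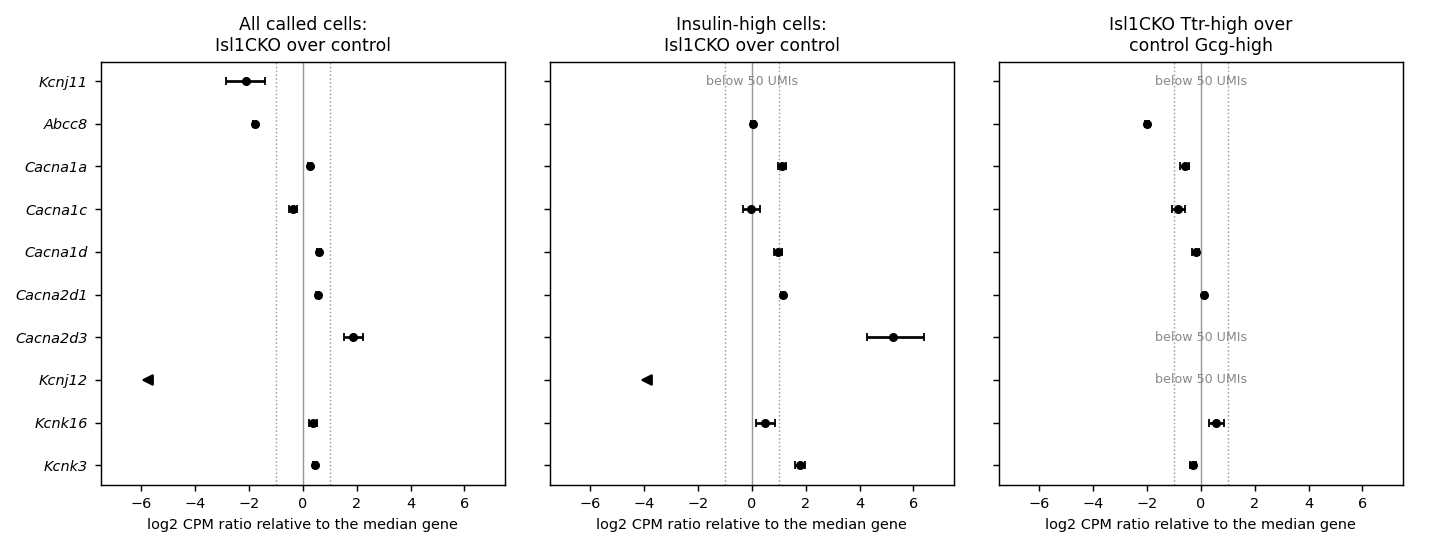
Log2 CPM ratio of each gene relative to the median gene (horizontal axis) over all called cells, in insulin-high cells, and in Isl1CKO Ttr-high over control Gcg-high cells, with exact 95% counting intervals. Dotted lines mark 2-fold. Triangles mark Kcnj12 with 3 UMIs put in place of its 0 Isl1CKO UMIs, drawn without an interval. Abcc8 lies at -1.78, 0.04 and -1.99 in the 3 comparisons.

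Among insulin-high cells, Cacna2d1 stood at 178 CPM in Isl1CKO cells (171 to 185) and 59.9 CPM in control cells (57.6 to 62.3). Its log2 ratio was 1.16 (1.08 to 1.24). Markers of other endocrine classes were higher too, with Chgb at 9645 CPM in Isl1CKO and 1516 CPM in control insulin-high cells, Ttr at 5140 and 1009 CPM and Fev at 79.5 and 7.55 CPM. The 9 enterochromaffin markers, of which Lmx1a had 0 UMIs in both, summed to 21868 and 5345 CPM outside the hormones, mostly Chgb. Their part in the calcium channel and Kcnk3 values of insulin-high cells was not tested. The share of cells with 5 or more Cacna2d1 UMIs was 72.8% in Isl1CKO and 20.5% in control insulin-high cells, although the control cells were deeper, with a median of 48339.5 against 38693 UMIs in Isl1CKO cells. After thinning, 60.8% of Isl1CKO and 26.2% of control insulin-high cells kept a UMI. Mesenchymal-marker cells held Cacna2d1 as well, in 33.3% of Isl1CKO and 36.8% of control cells, so they give no background level for this gene.

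Cacna2d3 had 157 UMIs in 383 Isl1CKO insulin-high cells (10.7 CPM, 9.09 to 12.5) and 9 UMIs in 898 control insulin-high cells (0.210 CPM, 0.0962 to 0.399). The log2 ratio was 5.25 (4.29 to 6.41), or 38.2-fold, and 27.9% of Isl1CKO against 0.891% of control insulin-high cells had a UMI. The most UMIs in 1 Isl1CKO cell was 7, so the class total did not come from a single cell. In the control library 64.3% of Cacna2d3 UMIs lay in Sst-high cells, at 6.52 CPM (4.90 to 8.51). The Isl1CKO classes held 15.5 CPM in Chgb-high cells and 15.9 CPM in no class, with overlapping intervals, but 0.411 CPM (0.244 to 0.650) in Ttr-high cells. Ttr-high and control Gcg-high cells, at 0.0733 CPM, were thus both near 0.

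Cacna1a, the P/Q-type pore gene, stood at 47.4 CPM in Isl1CKO insulin-high cells (44.0 to 51.1) and 16.4 CPM in control cells (15.2 to 17.6). Its log2 ratio was 1.12 (0.97 to 1.28). Cacna1d, an L-type pore gene, fell just short of 2-fold at 0.98 (0.84 to 1.11), with 61.4 CPM in Isl1CKO and 23.5 CPM in control cells. Cacna1c, the other L-type pore gene, had 8.86 CPM in Isl1CKO cells (7.40 to 10.5) and 6.71 CPM in control cells (5.96 to 7.53), a log2 ratio of -0.01 (-0.32 to 0.29). The 2 L-type genes therefore had intervals that did not overlap.

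The order of classes differed between the pore genes. Outside the hormones, Cacna1a was highest in Isl1CKO insulin-high cells at 104 CPM (96.8 to 112) and lowest in Ttr-high cells at 24.6 CPM (23.2 to 26.2), with the 4 control classes between 48.0 and 56.6 CPM and not separated by their intervals. Cacna1d was 135 CPM in Isl1CKO insulin-high cells, 128 CPM in no class and 119 CPM in Chgb-high cells, against 75.5 CPM in control insulin-high and 73.9 CPM in Gcg-high cells. Cacna1c was lowest in Ttr-high cells at 9.92 CPM (9.01 to 10.9) and ranged from 14.8 to 22.9 CPM elsewhere. There each neighbouring pair of classes had overlapping intervals, but control no-class (11.9 to 18.2) and Gcg-high cells (19.9 to 26.2) did not overlap.

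Of the two-pore channel genes, Kcnk3, which encodes an acid-sensitive background channel, differed in insulin-high cells and Kcnk16 much less. Isl1CKO insulin-high cells held 616 Kcnk3 UMIs (42.0 CPM, 38.7 to 45.4) and control insulin-high cells 386 UMIs (9.02 CPM, 8.15 to 9.97). The log2 ratio was 1.80 (1.62 to 1.99), and 71.8% of Isl1CKO against 27.2% of control cells had a UMI. Control Gcg-high cells held 58.6 CPM (54.6 to 62.8), a log2 difference from control insulin-high cells of 1.64 (1.46 to 1.82). Outside the hormones, the Isl1CKO insulin-high level of 92.4 CPM (85.2 to 100) overlapped the 86.7 CPM of Gcg-high cells, and control insulin-high cells stood lowest of all 8 classes at 29.0 CPM.

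Kcnk16, a two-pore channel gene of islet cells, had 8.38 CPM in Isl1CKO insulin-high cells (6.96 to 10.0) and 4.42 CPM in control cells (3.81 to 5.09). Relative to the median gene this was 0.51 (0.17 to 0.85). Outside the hormones all 8 classes lay between 12.2 and 18.4 CPM, and every neighbouring pair overlapped. The lowest, Chgb-high cells (10.1 to 14.7), and the highest, Isl1CKO insulin-high cells (15.3 to 22.0), did not overlap.

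Insulin-high cells were not alike in the libraries, so they were also narrowed in 4 ways, chosen after seeing the data. The median insulin share was 50.4% in Isl1CKO and 65.5% in control insulin-high cells. With at least 3 UMIs of Msln, the mesothelin gene, in each cell, the log2 ratios were 1.08 for Cacna1a, 1.01 for Cacna2d1, 4.52 for Cacna2d3 and 1.55 for Kcnk3. Between insulin shares of 20% and 50% they were 1.29, 0.92, 2.98 and 0.97 in the same order, and at 50% or more they were 1.03, 1.25, 6.13 and 2.04. Cells with no Ucn3 UMI gave 1.07, 0.91, 2.97 and 1.02. The Cacna2d3 value at 50% or more rests on 49 Isl1CKO UMIs, under the minimum of 50, and 3 control UMIs. All 4 genes were thus higher in Isl1CKO cells in each subset, and Cacna2d1 and Kcnk3 fell under 2-fold in some of them.

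**Figure D4:**
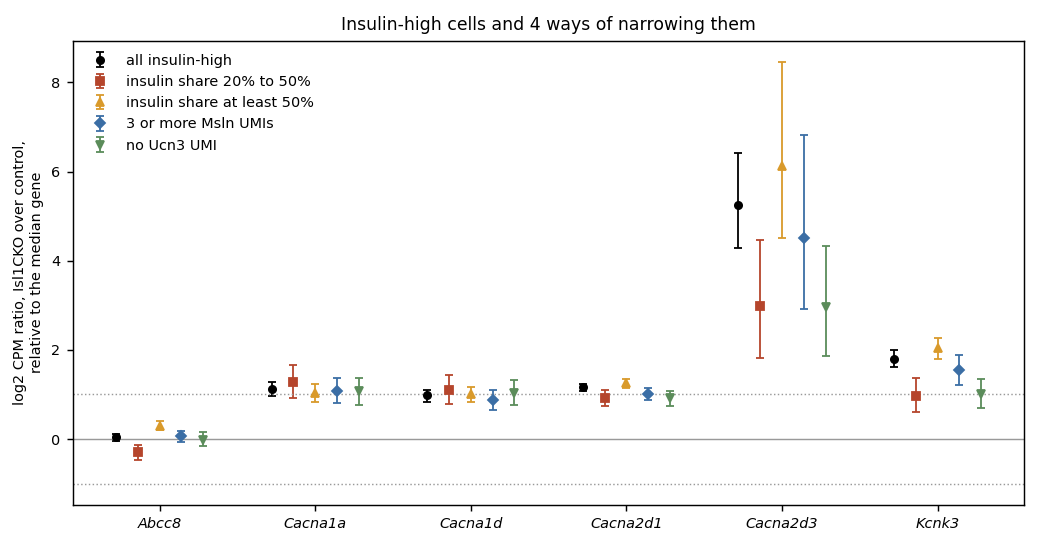
Log2 CPM ratio of Isl1CKO over control relative to the median gene (vertical axis) for 6 genes in all insulin-high cells and in 4 narrower sets, with exact 95% counting intervals. Cacna2d3 lies between 2.97 and 6.13, and Abcc8 between -0.30 and 0.30.

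The sex of the cells also differed, since each pool mixed animals. Of insulin-high cells, 221 of 383 Isl1CKO and 188 of 898 control cells had Xist but no Y-linked UMIs. In those cells the log2 ratios were 0.98 for Cacna1a, 1.44 for Cacna2d1, 5.00 for Cacna2d3 and 1.41 for Kcnk3. In cells with Y-linked UMIs and no Xist they were 1.22, 0.94, 5.34 and 2.06 in the same order. Abcc8 was 0.32 (0.19 to 0.45) in the Xist cells and -0.27 (-0.40 to -0.14) in the Y-linked cells. Outside the hormones Cacna1a was 0.99, under 2-fold, and Cacna2d1 1.02.

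Ttr-high Isl1CKO cells were set beside control Gcg-high cells because both hold alpha-cell markers, though by different rules. Abcc8 was 57.1 CPM in Ttr-high cells and 201 CPM in Gcg-high cells (193 to 208), a log2 ratio of -1.99 (-2.06 to -1.91), or 3.96-fold lower. It was the 1 member past 2-fold of 7 compared, where 8.66% of 11977 genes were higher and 7.21% lower. Higher genes made up 54.6% of those past 2-fold, 68.7% on plain CPM and 23.2% outside the hormones. The other 6 ranged from -0.83 (-1.07 to -0.59) for Cacna1c to 0.58 (0.30 to 0.87) for Kcnk16. Outside the hormones Cacna1c also passed 2-fold, at -1.21, and in cells with Xist only Cacna1a did, at -1.01.

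The same Ttr rule in both libraries left 113 control cells. Abcc8 then stood at 57.1 CPM in Isl1CKO and 164 CPM in control cells (149 to 179), a log2 ratio of -2.0 (-2.14 to -1.85). Cacna1a was -0.55 (-0.89 to -0.18) and Kcnk3 -0.15 (-0.41 to 0.13). Within the Isl1CKO library, Ttr-high over insulin-high cells gave -2.05 for Abcc8, -1.77 for Cacna1a, -1.26 for Cacna2d1 and -5.50 for Cacna2d3. In the control library, Gcg-high over insulin-high cells gave -0.05, -0.08 and -0.25 for the first 3 of these. Depth in these classes was a median of 29017 UMIs in Ttr-high and 21125 UMIs in Gcg-high cells.

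Chgb-high cells were compared with the other Isl1CKO cells of the same library. Abcc8 was 20 CPM in Chgb-high cells and 72.2 CPM in the other cells (70.2 to 74.3), a log2 ratio of -2.06 (-2.27 to -1.86). Cacna2d3 was 15.5 CPM in Chgb-high cells (13.1 to 18.1) and 4.97 CPM in the others (4.45 to 5.53), a log2 ratio of 1.42 (1.14 to 1.70). These were the 2 members past 2-fold of 8 compared, where 3.66% of 12117 genes were higher and 10.5% lower. Higher genes made up 25.8% of those past 2-fold, 40.9% on plain CPM and 35% outside the hormones. Cacna2d1 stood at 361 CPM in Chgb-high and 168 CPM in the other cells, a log2 ratio of 0.89 (0.83 to 0.94). It was past 2-fold at 1.1 on plain CPM and 1.03 outside the hormones.

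The cells set against the Chgb-high class decided the Cacna2d3 value. It was 5.03 over Ttr-high cells, -0.46 (-0.79 to -0.13) over insulin-high cells, and 0.50 once cells with several hormones were left out. Abcc8 kept its direction, at -1.71 over Ttr-high cells, -3.75 over insulin-high cells, -4.38 with the Chgb threshold doubled and -1.43 with it halved. Under the Chgb rule in both libraries, Abcc8 stood at 20 CPM in 494 Isl1CKO cells and 86.7 CPM (65.3 to 113) in 33 control cells. Isl1CKO over control gave -2.31 (-2.75 to -1.85) for Abcc8 and -0.20 (-0.39 to 0.00) for Cacna2d1. Cacna2d3 had 158 UMIs in the Isl1CKO and 1 UMI in the control Chgb-high cells, a log2 ratio of 3.09 with an interval of 0.60 to 8.41.

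The other channel genes were taken from 10 family lists of 147 genes besides the members, of which 146 were in the files. Over all cells 85 could be compared, with 10 higher (11.8%) and 20 lower (23.5%) by at least 2-fold and a median of -0.32, where all genes have a median of 0. In insulin-high cells 41 could be compared, with 6 higher (14.6%) and 2 lower (4.88%) and a median of 0.31. The shares among all genes are those given with the members above.

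Over all cells, the 2 farthest above the median gene were Kcnmb1, a BK channel beta subunit gene, and Kcnq1, a voltage-gated potassium channel gene. Kcnmb1 was 14.4 CPM in Isl1CKO and 1.64 CPM in control cells, at 2.56 (2.29 to 2.85), and Kcnq1 was 8.53 and 1.38 CPM, at 2.05 (1.75 to 2.37). Farthest below were Cacna2d2, another alpha-2-delta gene, and Trpm5, a calcium-activated cation channel gene of beta cells. Cacna2d2 was 0.179 CPM in Isl1CKO and 4.23 CPM in control cells, at -5.14 (-6.03 to -4.37), the opposite direction to Cacna2d3. Trpm5 was 2.47 and 27.5 CPM, at -4.05 (-4.27 to -3.84).

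The 2 listed KATP genes of other tissues, Kcnj8 and Abcc9, which form the vascular channel, were both lower over all cells. Kcnj8 was 1.68 CPM in Isl1CKO and 3.09 CPM in control cells, and Abcc9 was 1.51 and 3.02 CPM. Kcnj8 had 0 UMIs in insulin-high cells of both libraries.

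In insulin-high cells the 2 farthest above were Kcnmb4, another BK beta subunit gene, and Trpm3, a cation channel gene. Kcnmb4 was 12.3 CPM in Isl1CKO and 1.24 CPM in control cells, at 2.90 (2.45 to 3.37), and Trpm3 was 5.79 and 0.865 CPM, at 2.33 (1.76 to 2.93). Farthest below were Trpm5 and Scn9a, a voltage-gated sodium channel gene. Trpm5 was 11.8 CPM in Isl1CKO and 45.4 CPM in control cells, at -2.36 (-2.59 to -2.14), and Scn9a was 10.1 and 20.2 CPM, at -1.41 (-1.67 to -1.16).

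**Figure D5:**
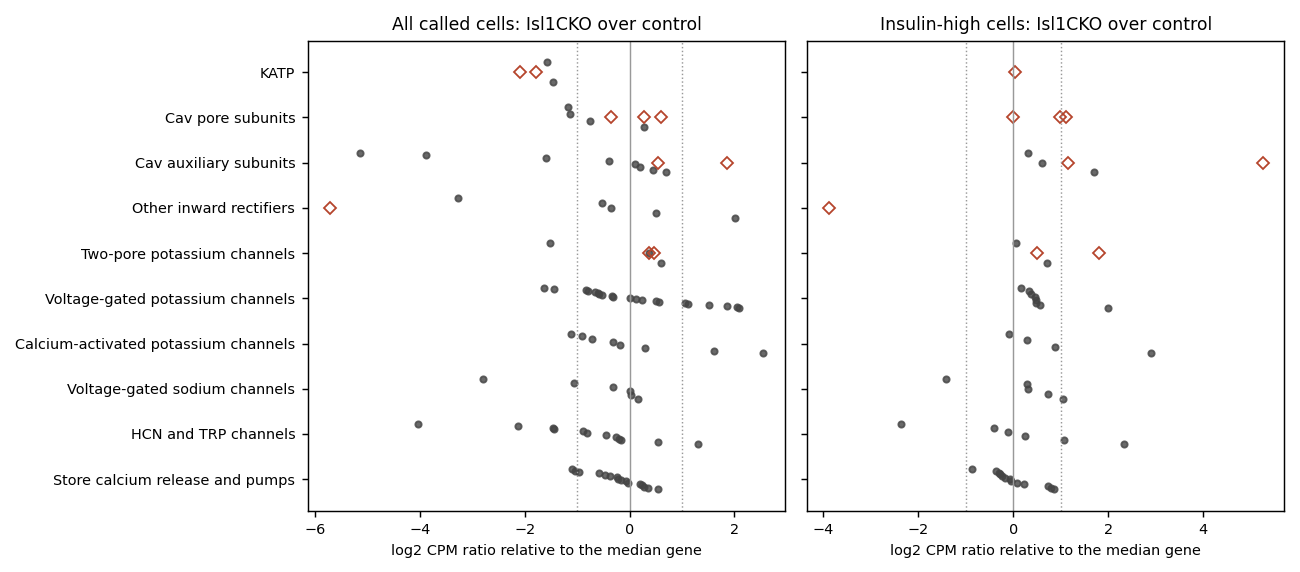
Log2 CPM ratio of Isl1CKO over control relative to the median gene (horizontal axis) for genes of 10 channel lists, over all called cells and in insulin-high cells. Filled points are listed genes and red diamonds the members, without Kcnj11 in insulin-high cells, where it was below 50 UMIs. Kcnj12 is drawn with 3 UMIs put in place of its 0 Isl1CKO UMIs, at -5.73 and -3.88, and dotted lines mark 2-fold. In insulin-high cells Kcnmb4 at 2.90 and Cacna2d3 at 5.25 lie farthest to the right of their lists.

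Ttr-high over Gcg-high cells had 49 listed genes compared, with 6 higher and 9 lower and a median of -0.33. Kcnq1 was 5.44 CPM in Ttr-high and 0.513 CPM in Gcg-high cells, at 3.23 (2.17 to 4.56), and Kcnmb1 was 23.5 and 3.37 CPM, at 2.63 (2.20 to 3.09). Scn9a was 6.24 CPM in Ttr-high and 30.3 CPM in Gcg-high cells, at -2.45 (-2.68 to -2.23). Itpr1, an intracellular calcium release channel gene, was 60.9 and 200 CPM, at -1.89 (-1.97 to -1.81).

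Chgb-high over the other Isl1CKO cells had 61 listed genes compared, with 11 higher and 9 lower and a median of 0.23. Kcnmb4 was 30.2 CPM in Chgb-high and 5.82 CPM in the other cells, at 2.16 (1.94 to 2.38). Cacna1h, a T-type calcium channel pore gene, was 10.2 and 2.26 CPM, at 1.96 (1.58 to 2.33). Kcnmb1 was 3.42 CPM in Chgb-high and 16.1 CPM in the other cells, at -2.45 (-2.98 to -1.97), and Kcnj8 had 0 and 131 UMIs.

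For 4 members the genes with the most similar levels over the 8 classes were looked up, by Pearson's r of log2(CPM outside the hormones + 1). They were B3galnt1 (r = 0.979), Srgap1 and Thsd4 for Abcc8, and Ush1c (0.963), Cdk20 and Zfp455 for Kcnj11. For Cacna2d3 they were Dgkz (0.988), Tulp3 and Hdc, the histidine decarboxylase gene, and for Kcnj12 they were Npy (0.984), the neuropeptide Y gene, Map2k2 and Cox6a2. The 8 classes come from only 2 libraries and share their depth and background RNA, so these values describe the classes and nothing further.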

How the data were processed

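The authors deposited raw UMI counts, as whole numbers and not normalized, from libraries made with a 10x 3' v3.1 kit, per the labels' protocols. Build GRCm38.p6 and the tools Seurat 4.3.0.1, STAR 2.7.3a and STARsolo appear in the submitters' processing notes, with no annotation release. The Isl1CKO file held 3020 barcodes, all kept. Control barcodes were kept from 6825 UMIs, 0.1 times the value at percentile 99 among the 3000 deepest, which 2504 of 6794880 passed.

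UMIs were summed over cells by library and class and scaled to CPM. A gene was compared if the side of higher CPM had 50 UMIs or more, by their log2 CPM ratio relative to the median gene, with exact conditional binomial intervals. CPM carry exact Poisson and shares Clopper-Pearson intervals, all at 95% and for counting error only. A count of 0 was set to 3 UMIs per library or class, in place of the upper end of its interval. A gene was counted as higher or lower at 2-fold. The members and lists were chosen with earlier results of these data known. Every member is named in each comparison, and of the listed channel genes the 2 farthest above and 2 farthest below the median gene by the interval bound nearest to 0. The procedure was tested on simulated data. Scrublet marked 8 Isl1CKO cells (0.265%, expected 2.42%) and 22 control cells (0.879%, expected 2%), so doublets may remain. A cell was taken to have several hormones if at least 2 hormone types reached 5% each of its hormone UMIs. Gene coordinates come from GENCODE M21, which holds 46488 of the 46983 identifiers, and promoter windows from RefSeq. Figures used matplotlib 3.10.9, and the computations scanpy 1.11.5, scipy 1.17.1, numpy 2.4.6 and pandas 2.3.3 under Python 3.11.15.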

Additional observations from a re-analysis of the deposited data

Results flagged for a closer look

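Channel transcripts were also counted in control barcodes with 100 or fewer UMIs, which held 5204530 UMIs in all and belong to no called cell. Abcc8 had 772 UMIs there, Cacna2d1 174, Kcnk3 105, Cacna1a 74, Cacna1d 68, Cacna1c 29, Kcnk16 29 and Kcnj12 4. Abcc8 stood at 148 CPM in these barcodes (138 to 159) and at 151 CPM in called control cells, while Cacna2d1 stood at 33.4 and 88.3 CPM. Outside the hormones the levels were 402 and 322 CPM for Abcc8 and 90.6 and 189 CPM for Cacna2d1. Islet hormones made up 63.1% of the UMIs there. The Isl1CKO file listed called cells only, so its own free RNA was not analysed here, and the part of free RNA in the class levels was not tested.

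Relative to the median gene, Cacna1a differed in opposite directions between classes selected by the same rule in both libraries. Isl1CKO over control, its log2 ratio was 1.12 (0.97 to 1.28) in insulin-high cells and -0.55 (-0.89 to -0.18) in Ttr-high cells. The second value rests on 113 control cells with 72 Cacna1a UMIs, and the median gene stood at 0.48 in that comparison. On plain CPM the Ttr-high levels overlapped, at 24.3 CPM in Isl1CKO (22.9 to 25.9) and 25.5 CPM in control cells (19.9 to 32.1). Outside the hormones they were 24.6 CPM (23.2 to 26.2) and 37.5 CPM (29.3 to 47.2). With 1 library per genotype, the difference between the classes was not tested.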

How the results depend on the processing

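No paired analysis was possible because each genotype is 1 library. Of 540 member values under alternatives, 380 moved by less than their counting interval, 159 moved further and 1 reversed, Cacna2d3 in Chgb-high over insulin-high Isl1CKO cells at -0.46. Over all cells 1 member was higher and 3 lower. On plain CPM 4 were higher, and 1 was lower at a minimum of 200 UMIs, thinned to 5000 UMIs or in cells with Xist only, where fewer UMIs remain. In insulin-high cells 1 was lower, but 0 at a minimum of 200 UMIs, thinned, in Xist cells and in 3 of the 4 subsets added after seeing the data (insulin share 20% to 50%, at least 3 Msln UMIs, no Ucn3 UMI), because Kcnj12 then falls below the minimum. In Ttr-high over Gcg-high cells 1 was lower and 0 higher. There 2 were lower outside the hormones, at a minimum of 10 UMIs or in Xist cells, and 1 higher at a minimum of 10. In Chgb-high cells 1 was higher and 1 lower. There 2 were higher on plain CPM or outside the hormones, 3 over Ttr-high cells, and 0 at a minimum of 200, thinned, without several-hormone cells or over insulin-high cells, and 2 were lower at a minimum of 10. Over all genes, the count higher over all cells ranged from 412 (thinned) to 2444 (plain CPM) beside 752, and the count lower from 431 (Xist cells) to 1786 (minimum of 10) beside 983. In insulin-high cells these ran from 157 to 1112 beside 501 and from 126 to 1100 beside 477, in Ttr-high over Gcg-high cells from 548 to 1671 beside 1037 and from 343 to 1967 beside 864, and in Chgb-high cells from 153 to 1005 beside 443 and from 300 to 1961 beside 1275. Depth limits Kcnj11, with 24 UMIs in Isl1CKO and 64 in control cells, and Kcnj12, with 0 and 99.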
